A study of Mus musculus with 34 samples.

Results

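The comparison described here is the difference between the CCl4 responses of liver macrophages from knockout and from control mice: the change with CCl4 in knockout mice minus the change with CCl4 in controls. It was taken over all 16 macrophage libraries, chosen by their group label, of the 34 libraries in the series; the other 18 are hepatocyte libraries. Knockout mice carried an Osteopontin-iCreERT2 driver with floxed Yap and Taz alleles (Yap fl/fl Taz fl/fl), and controls were floxed siblings without the Cre, all on a mixed B6;129P background. Every mouse, controls included, received tamoxifen at 1.6 mg/kg on 5 days at 7 to 8 weeks of age and then had 3 weeks of washout. CCl4, a solvent that kills hepatocytes around the central veins once they metabolise it, was injected into the peritoneum at 1 ml/kg, 48 h before harvest. The 4 groups of 4 mice were controls without CCl4 (mice 6, 7, 8 and 9), controls with CCl4 (11, 12, 15 and 16), knockouts without CCl4 (4, 5, 20 and 21) and knockouts with CCl4 (13, 14, 17 and 18). The osteopontin promoter is used to direct recombination to biliary cells, so the groups describe macrophages from livers with a deletion aimed elsewhere, and recombination in the sorted cells was not measured. The sex of the mice was not labelled.

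Liver macrophages comprise resident Kupffer cells, which live in the sinusoids and take up particles, lipoproteins and dying cells, and monocyte-derived cells that enter from the blood after injury. In injured or lipid-loaded tissue, monocyte-derived cells can take on a state known for lipid uptake, lysosomal digestion and matrix breakdown, marked by genes such as Gpnmb, Cd63, Fabp5 and Lgals3. YAP and TAZ are transcriptional co-activators that work with TEAD factors in epithelial growth and repair, and biliary cells depend on them during liver injury.

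The macrophages had been sorted as live F4/80+ CD45+ cells and sequenced as tags from the 3' end of transcripts, giving 596380 to 5128587 counts per library. A count of 3 in a library was worth 0.585 to 5.03 CPM, the depth-scaled count used throughout. An expected count of 3 is roughly the highest that counting error alone leaves likely at a count of 0, and spread between mice adds to it. All 10 macrophage identity genes checked (among them Adgre1, which encodes F4/80, and Csf1r) were detected in all 16 libraries, and their mean level, as log2(CPM + 1), lay between 8.11 and 9.46. All 22 hepatocyte genes checked were detected in all 16 libraries too, and their summed CPM was 26097 to 31112 in controls without CCl4, 809 to 24477 in controls with CCl4, 6554 to 24154 in knockouts without CCl4 and 4649 to 46725 in knockouts with CCl4. Mice 13 and 14, both knockouts with CCl4, had the highest hepatocyte sums and the lowest macrophage identity levels. Mouse 11 is labelled a control by genotype and group but a knockout by its description, and was kept as a control here. Mice 8 and 11, both controls, came from a first series of file numbers. In sorted cells, fewer cells of a type and less RNA per cell cannot be told apart.

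Of 10815 genes tested, 12 (0.111%) had a different CCl4 response in the 2 genotypes by edgeR's quasi-likelihood test at a Benjamini-Hochberg adjusted p under 0.05. The difference was negative for 8 of them (0.074% of genes tested) and positive for 4 (0.037%). All 8 with a negative difference rose with CCl4 in controls: Cd36 and Lpl, which handle lipid uptake, the lectin Lgals3, the growth factor family member Gdf3, and Emp1, Myo5a, Stap1 and Lsp1 of the membrane, cytoskeleton and receptor signalling. The 4 with a positive difference were Gpc3 and the transcripts Sult2a8, Cyp2c54 and Mettl7a1. The last 3 were set apart because they were more abundant in the hepatocyte libraries, as 2768 (25.6%) of the genes tested were by mean CPM. At an unadjusted p under 0.05 there were 1209 genes.

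CCl4 alone changed 1140 genes (10.5%) in control macrophages, 620 upward (5.73%) and 520 downward (4.81%), and 48 (0.444%) in knockout macrophages, 40 upward (0.37%) and 8 downward (0.074%), by the same test. Those counts come from groups of equal size but do not by themselves compare the genotypes. Without CCl4, knockouts differed from controls in 8 genes (0.074%), and after CCl4 in 3 (0.0277%), Emp1, Il7r and the signalling protease Malt1, all lower in knockouts. The count for CCl4 in knockouts was 81 without mouse 20, 32 without mouse 9, 16 to 24 without mouse 12, 13, 14, 15, 16 or 17 and 1 to 4 without mouse 4, 5, 18 or 21. For the CCl4 response in control macrophages it was 663 without mouse 16 and 753 without mouse 15. Without CCl4 the genotype count was 17 without mouse 18 and 1 to 5 without mouse 4, 5, 6, 7, 12, 13, 20 or 21. After CCl4 it was 4 to 8 without mouse 4, 6, 7, 12 or 21, 2 without mouse 14 and 0 without mouse 5, 8, 9, 13, 15, 16, 17, 18 or 20. Over all genes tested the median difference of responses was 0.00 on the log2 scale, with medians of -0.03 for the control and 0.02 for the knockout response. Among the 8047 genes not set apart, 461 (5.73%) had a negative and 197 (2.45%) a positive difference at an unadjusted p under 0.05, and the median difference was -0.11. Among the 2768 set apart, 51 (1.84%) were negative and 500 (18.1%) positive, and the median was 0.50. Over all tested genes the same shares were 4.73% negative and 6.44% positive.

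**Figure D1:**
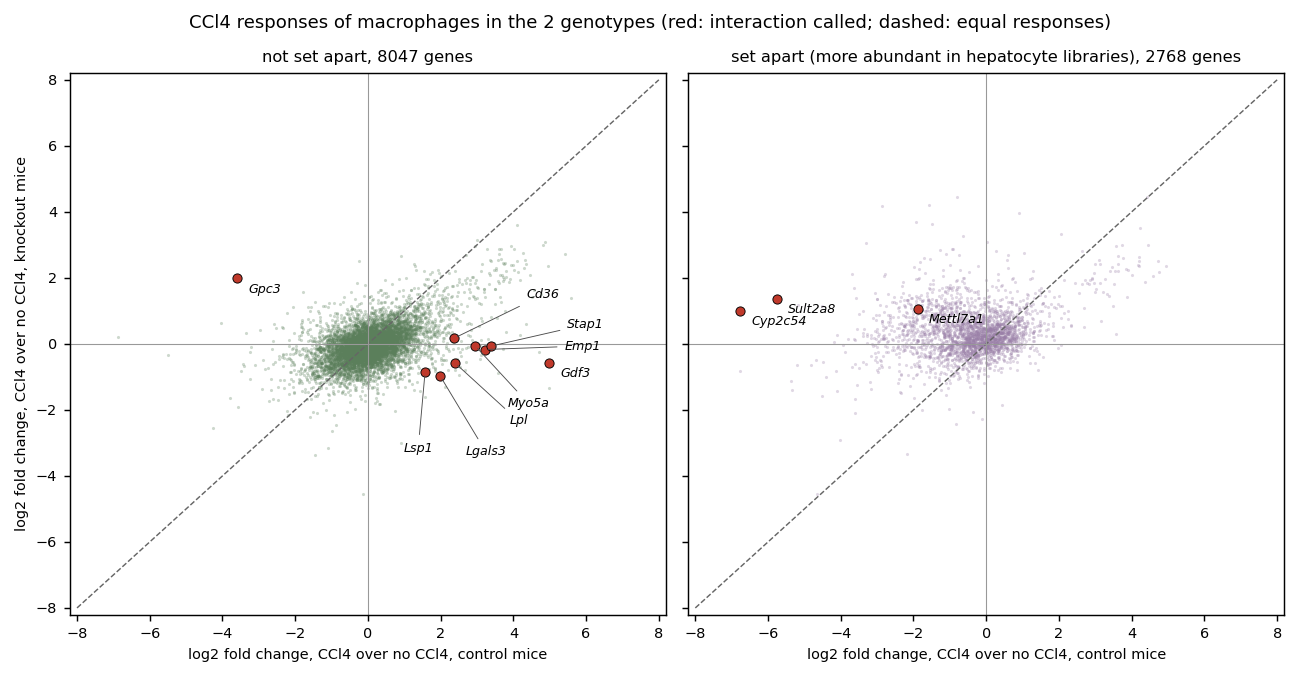
Log2 response to CCl4 of each tested gene in control (x axis) and knockout (y axis) macrophages, for the 8047 genes not set apart (left) and the 2768 more abundant in hepatocyte libraries (right); red points are the 12 genes whose responses differed, and the dashed line marks equal responses. The 8 genes with a negative difference lie to the right, with knockout responses between -0.97 and 0.17, and the 4 with a positive difference lie to the left and above 0.

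Promoter sequences from RefSeq (GRCm38.p6, 250 bases before to 50 after a transcription start) were found for 6 of 11 genes looked for. Of these, 3 are shown: that of Emp1, the gene of lowest p, and those of Cd36 and Gpnmb, a lipid uptake and a lysosomal gene whose levels were highest in controls with CCl4. The windows are chr6:135362681-135362980 on the plus strand, chr5:17835847-17836146 on the minus strand and chr6:49036268-49036567 on the plus strand. Capitals mark matches to TGANTCA, the AP-1 motif bound by FOS and JUN proteins.
Emp1: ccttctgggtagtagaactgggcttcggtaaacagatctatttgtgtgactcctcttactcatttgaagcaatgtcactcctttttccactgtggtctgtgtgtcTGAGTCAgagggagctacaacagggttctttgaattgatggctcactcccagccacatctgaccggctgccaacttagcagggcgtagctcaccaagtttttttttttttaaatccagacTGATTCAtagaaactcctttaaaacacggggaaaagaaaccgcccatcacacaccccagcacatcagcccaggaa
Cd36: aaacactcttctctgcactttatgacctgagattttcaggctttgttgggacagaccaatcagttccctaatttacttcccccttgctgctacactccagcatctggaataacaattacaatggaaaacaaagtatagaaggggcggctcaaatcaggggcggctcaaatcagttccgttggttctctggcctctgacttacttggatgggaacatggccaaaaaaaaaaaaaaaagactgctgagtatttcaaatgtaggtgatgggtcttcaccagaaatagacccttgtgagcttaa
Gpnmb: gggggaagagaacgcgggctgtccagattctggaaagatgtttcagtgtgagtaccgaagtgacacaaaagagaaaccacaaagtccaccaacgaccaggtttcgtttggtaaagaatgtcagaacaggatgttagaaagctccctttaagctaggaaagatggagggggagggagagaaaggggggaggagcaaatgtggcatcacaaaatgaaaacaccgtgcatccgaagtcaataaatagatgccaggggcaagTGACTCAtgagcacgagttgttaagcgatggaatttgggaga
The first Emp1 start held 2 matches, beginning at bases 106 and 226 of the window, and the Gpnmb window held 1, beginning at base 259. The Cd36 window held none, and neither did those of Lgals3, Myo5a, Gpc3 or a second Emp1 start. No match to the E-box CACGTG bound by the MiT/TFE lysosomal regulators, to the TEAD motif GGAATG or to the ETS motif GAGGAAGT of PU.1 was found in any of these windows on either strand. Of 32851 promoters of the same 300 bases, 7.81% held TGANTCA, 7.15% CACGTG, 14.7% GGAATG and 3.2% GAGGAAGT. A match describes the letters only.

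In the paragraphs that follow, levels are CPM normalised by TMM factors, the 4 values of a group are in the mouse order given above, and means have SD with n = 4. A response was called blunted where it was smaller in knockouts than in controls, enhanced where it was larger, and reversed where the signs were opposite and the smaller response was at least 0.5 on the log2 scale. Of the 9 genes not set apart, 4 were blunted (Emp1, Cd36, Myo5a and Stap1), 5 reversed (Gdf3, Lsp1, Lpl, Lgals3 and Gpc3) and 0 enhanced. The line between the classes was thin. With opposite signs alone 1 was blunted and 8 reversed, and with a limit of 1 the counts were 8 and 1. No knockout response of the 5 reversed genes passed the test on its own.

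The lipid genes were Cd36 and Lpl. Cd36 (chr5:17781690-17888801, minus strand) encodes a scavenger receptor that takes up fatty acids and oxidised lipoproteins. Its levels were 63.7, 97.2, 77.1 and 116 CPM in controls without CCl4 and 348, 305, 496 and 675 with CCl4, against 211, 231, 201 and 211 in knockouts without and 251, 219, 222 and 271 with CCl4. All 4 controls with CCl4 stood above the other 12 libraries, all 4 untreated controls stood below them, and both knockout groups overlapped in between. The means were 88.4 ± 22.8, 456 ± 168, 214 ± 12.7 and 241 ± 24.7 CPM in that order. Cd36 rose 5.17-fold in controls (log2 2.37, adjusted p = 4.59e-05) and had a knockout response of 0.17 (adjusted p = 0.870). The difference was -2.20 (SE 0.342, adjusted p = 0.0119).

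Lpl (chr8:68880491-68907448, plus strand) encodes the secreted lipase that frees fatty acids from circulating triglycerides. It was measured at 1492, 638, 470.3 and 488 CPM in controls without CCl4 and 2794, 2511, 4082 and 6885 with CCl4. In knockouts it was 2029, 1874, 1883 and 1640.4 without CCl4 and 869, 1034, 1317 and 1744 with it. The 4 controls with CCl4 were again the highest of all libraries, while mice 13, 14 and 17 of the knockouts with CCl4 lay below every untreated knockout and mouse 18 fell inside their range. Lpl rose 5.27-fold in controls (log2 2.40, adjusted p = 8.36e-04), against a knockout value of -0.58 (adjusted p = 0.642), a difference of -2.98 (SE 0.534, adjusted p = 0.0367). The call was kept without mouse 6, 11, 12 or 18, 4 of the 16 fits that left out 1 library each, and the adjusted p of the other fits reached 0.0937.

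Gdf3 and Lgals3 encode secreted proteins. Gdf3 (chr6:122605403-122610087, minus strand), a member of the TGF-beta family made by some tissue-repair macrophages, was at 0, 0.797, 2.42 and 0 CPM in controls without CCl4, where the 4 libraries together held 12 counts, and at 29.1, 21.8, 54.5 and 50.1 with CCl4. Knockouts held 11.1, 8.19, 14.6 and 11 CPM without CCl4 and 3.93, 11.8, 12.4 and 3.59 with it. The range of untreated knockouts thus lay wholly between those of untreated and CCl4-treated controls. In controls Gdf3 rose 31.7-fold as fitted (log2 4.98, adjusted p = 2.39e-04), the knockout value was -0.57 (adjusted p = 0.798), and the difference was -5.55 (SE 0.875, adjusted p = 0.0119). With 2 untreated controls at 0 counts, the size of this fold is poorly fixed.

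Lgals3 (chr14:47367751-47386160, plus strand), which encodes galectin-3, a lectin abundant in macrophages of injured tissue, was at 431, 439.7, 312 and 273 CPM in untreated controls and 1030.2, 817, 1731 and 2193 in controls with CCl4. Untreated knockouts had 910.2, 792, 971 and 524 CPM and knockouts with CCl4 187, 265, 458 and 715. The lowest 3 knockouts with CCl4 were below every untreated knockout, and none of the knockouts with CCl4 reached the lowest control with CCl4. Lgals3 rose 3.97-fold in controls (log2 1.99, adjusted p = 0.00347), with a knockout value of -0.97 (adjusted p = 0.341) and a difference of -2.96 (SE 0.541, adjusted p = 0.0394). The call was kept without mouse 11, 12, 18 or 21, and leaving out any other library ended it, with adjusted p values of up to 0.116.

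Emp1 and Myo5a belong to the membrane and the cytoskeleton. Emp1 (chr6:135362545-135383173, plus strand), an epithelial membrane protein of the tetraspan group, had the lowest p of all genes. It stood at 22.1, 29.5, 24.7 and 23.3 CPM in untreated controls, 179, 159.8, 232 and 355 in controls with CCl4, 61.7, 84, 55 and 68.2 in untreated knockouts and 63.9, 95.5, 46.6 and 32.3 in knockouts with CCl4. No range of the controls overlapped another range, while the 2 knockout ranges overlapped each other. With means of 24.9 ± 3.22, 232 ± 87.8, 67.2 ± 12.4 and 59.6 ± 27.2 CPM, Emp1 rose 9.28-fold in controls (log2 3.21, adjusted p = 3.43e-05) and had a knockout response of -0.17 (adjusted p = 0.906). The difference of -3.38 (SE 0.437, adjusted p = 0.00409) was kept in all 16 fits that left out 1 library and in 12 of 13 other fits. The exception was the fit with mouse 11 as a knockout (adjusted p = 0.0771). Emp1 was also lower in knockouts than in controls after CCl4 (log2 -1.96, adjusted p = 0.0463 by edgeR's quasi-likelihood test), 1 of the 3 genes called there.

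Myo5a (chr9:75071015-75223688, plus strand) encodes an unconventional myosin that moves vesicles and organelles along actin. Levels were 10.7, 15.9, 10.6 and 11.2 CPM in untreated controls, 83.9, 67.4, 78.1 and 144 in controls with CCl4, 42, 15.4, 18.6 and 26.6 in untreated knockouts and 28.5, 27.2, 28 and 17.9 in knockouts with CCl4. The 4 controls with CCl4 were all above the other 12 libraries, and all other libraries lay at 42 CPM or less. Myo5a rose 7.72-fold in controls (log2 2.95, adjusted p = 1.14e-04), against -0.06 in knockouts (adjusted p = 0.972), a difference of -3.01 (SE 0.472, adjusted p = 0.0119).

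Stap1 and Lsp1 are genes of immune cells. Stap1 (chr5:86071746-86106125, plus strand), an adaptor protein that docks to receptor tyrosine kinases, was at 2.01, 3.19, 5.73 and 3.45 CPM in untreated controls and 26.3, 40.5, 67.6 and 30 in controls with CCl4, against 18.9, 22.5, 15.4 and 34.4 in untreated knockouts and 21.6, 29.4, 26.4 and 11.2 in knockouts with CCl4. Both knockout ranges overlapped that of controls with CCl4, and untreated controls were below all other libraries. Stap1 rose 10.5-fold in controls (log2 3.39, adjusted p = 2.39e-04), with a knockout response of -0.07 (adjusted p = 0.974) and a difference of -3.46 (SE 0.595, adjusted p = 0.0278). It was also the only called gene not set apart that differed between genotypes without CCl4, being higher in knockouts by 2.54 (adjusted p = 0.0434 by edgeR's quasi-likelihood test). The difference of responses did not pass without mouse 5, 6, 9, 13, 15 or 21, with an adjusted p of up to 0.0804.

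Lsp1 (chr7:142460809-142494867, plus strand) encodes an actin-binding protein of leukocytes. Untreated controls held 34.9, 25.5, 29.3 and 18.1 CPM and controls with CCl4 104, 67.4, 91.7 and 58.3, while untreated knockouts held 95.8, 52.2, 108 and 71.5 and knockouts with CCl4 39.3, 43.3, 69.9 and 31.8. Untreated knockouts and CCl4-treated controls covered much the same range, and knockouts with CCl4 overlapped all 3 other groups. Lsp1 rose 2.97-fold in controls (log2 1.57, adjusted p = 0.00290), the knockout value was -0.86 (adjusted p = 0.266), and the difference was -2.43 (SE 0.421, adjusted p = 0.0278). It did not pass without mouse 4, 8, 9, 11, 13, 14, 15 or 20, with an adjusted p of up to 0.083.

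Gpc3 (chrX:52272426-52613950, minus strand) encodes glypican-3, a cell-surface proteoglycan of developing liver. It is named after its values were seen, since no group reached a mean of 10 CPM. Levels were 8.72, 12.7, 3.75 and 5.18 CPM in untreated controls, 0.619, 1.04, 0.524 and 0 in controls with CCl4, 0.823, 2.05, 1.62 and 3.25 in untreated knockouts and 7.86, 13.2, 4.66 and 4.48 in knockouts with CCl4, from 52, 4, 11 and 39 counts in all. Untreated controls and CCl4-treated knockouts were alike in range, and the other groups were lower. The fitted responses were -3.59 in controls (adjusted p = 0.00728) and 1.98 in knockouts (adjusted p = 0.278), a difference of 5.57 (SE 1.05, adjusted p = 0.0449). The call was kept in 2 of 15 fits that left out 1 library, those without mouse 12 or 18, with an adjusted p of up to 0.129 in the rest. Of 12 other fits 5 kept it, and it was lost with voom and without mice 13 and 14. Those mice, with the most hepatocyte RNA, had the highest Gpc3 among knockouts with CCl4. In hepatocyte libraries the medians, as CPM of the library total, were 0.281 and 0.863 in controls without and with CCl4. In knockout hepatocytes they were 0.792 without and 4.72 with CCl4. Untreated control macrophages had a mean of 7.6 CPM, above the medians of all hepatocyte groups. The part of hepatocyte RNA in these levels was not tested.

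**Figure D2:**
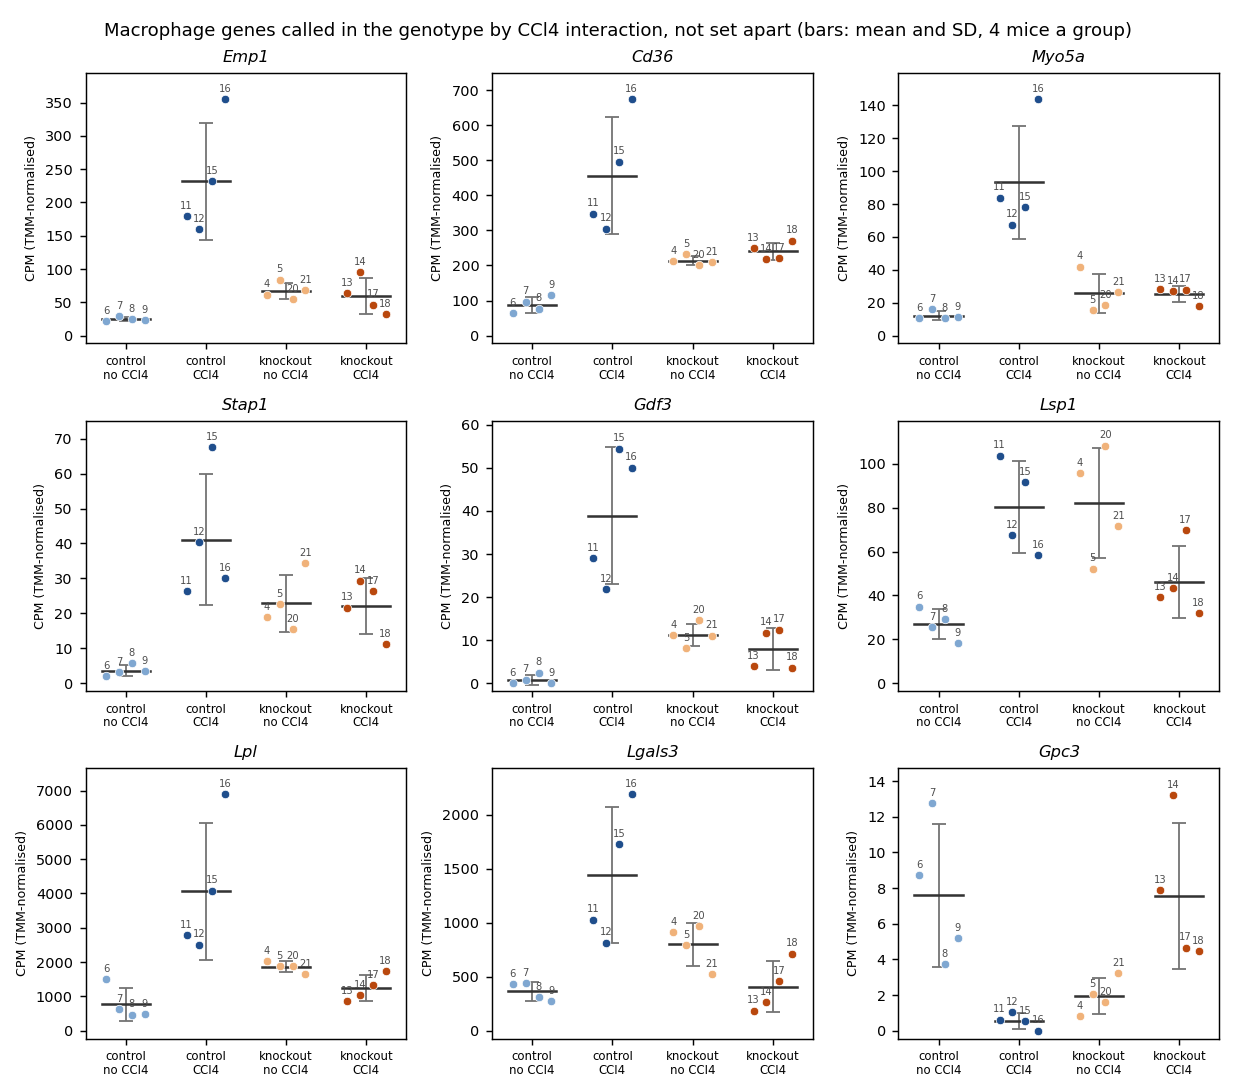
TMM-normalised CPM per mouse (points) for the 9 genes with a different CCl4 response that were not set apart, in controls and knockouts without and with CCl4 (bars, mean and SD, n = 4). Controls with CCl4 hold the highest mean in 7 panels; in the Lsp1 panel untreated knockouts are as high (82 ± 25.1 against 80.3 ± 21.1 CPM), and in the Gpc3 panel controls with CCl4 are the lowest.

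Ranges over the 4 mice of a group were compared for the 9 genes. Controls without and with CCl4 did not overlap for 9 of 9 genes (19.2% of all tested genes had such ranges), whereas knockouts without and with CCl4 did not overlap for 1, Gpc3 (6.79%). The genotypes without CCl4 did not overlap for 8 of 9 (8.83%), Myo5a being the exception, and after CCl4 for 7 (3.66%), the exceptions being Stap1 and Lsp1. Since the genes were called from these libraries, the counts describe the calls and are no further test. For the 8 genes that rose in controls, untreated knockouts lay above untreated controls in mean, and CCl4-treated knockouts below CCl4-treated controls.

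A further 16 genes had the next lowest p values among those with at least 10 CPM in a group and did not pass. Fabp5 (chr3:10012548-10016607, plus strand), an intracellular carrier of fatty acids, was at 16.1, 0.797, 14.3 and 10.4 CPM in untreated controls, 105, 102, 122 and 246 in controls with CCl4, 48.9, 30.7, 19.4 and 24.7 in untreated knockouts and 46.2, 33.8, 18.6 and 14.3 in knockouts with CCl4. Its difference was -3.87 (adjusted p = 0.0533 by edgeR's quasi-likelihood test). Gpnmb (chr6:49036546-49070929, plus strand), a lysosomal and membrane glycoprotein of phagocytes, was at 29.5, 50.2, 11.9 and 10.4, 361, 256, 408 and 956, 220.5, 71.7, 27.5 and 19.5 and 39.3, 16.9, 38.8 and 14.8 CPM in the same order, a difference of -6.00 (adjusted p = 0.0535). For both genes the controls with CCl4 were above all other libraries, although mouse 4, an untreated knockout, had nearly as much Gpnmb as the lowest of them. Il7r (chr15:9505788-9530176, minus strand), a receptor chain for interleukin-7 best known in lymphocytes, was at 16.1, 9.56, 11 and 13.8, 49.6, 61.2, 65 and 100.1, 9.46, 13.3, 14.6 and 32.5 and 12.8, 16.9, 15.5 and 6.73 CPM. Its difference of -2.91 had an adjusted p of 0.0501, and after CCl4 it was lower in knockouts (log2 -2.44, adjusted p = 0.0463 by edgeR's quasi-likelihood test). Il7r was higher in every control with CCl4 than in any other library. Of the 10 T and NK cell genes tested, Il7r among them, it alone had an unadjusted p under 0.05, and their summed CPM, Il7r included, was 59.7 to 92.4 in untreated controls, 112 to 189 in controls with CCl4, 35.4 to 174 in untreated knockouts and 51.1 to 104 in knockouts with CCl4.

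F13a1 (chr13:36867178-37050244, minus strand), the coagulation factor XIII subunit carried by monocytes, was at 16.1, 6.37, 9.26 and 9.49, 124, 58.1, 84.4 and 82.8, 60, 31.7, 6.47 and 16.9 and 9.83, 22.8, 37.3 and 17.9 CPM in the 4 groups, a difference of -3.54 (adjusted p = 0.0787 by edgeR's quasi-likelihood test). Untreated knockouts spanned a wide range, with mouse 4 inside and mouse 20 far below the range of CCl4-treated controls. Of the 16 genes, 13 had a negative and 3 a positive difference. The other negative ones included the cytoskeletal genes Vim (-1.64) and Parvg (-2.32), the transcription factor Bhlhe40 (-1.33) and the receptor Gpr35 (-2.04), with adjusted p values of 0.101 to 0.106. The 3 positive ones were Ipmk, an inositol phosphate kinase, Zfp36l1, which promotes mRNA decay, and the stress-induced transcription factor Atf3.

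Ipmk (chr10:71347763-71433327, plus strand) was at 178, 171, 125 and 174 CPM in untreated controls and 33.5, 45.7, 48.7 and 49.2 in controls with CCl4, and at 59.2, 86, 59.9 and 79.9 and 71.8, 42.6, 52.8 and 59.2 in knockouts without and with CCl4. Only untreated controls stood apart, above all 12 other libraries. Ipmk fell in controls (log2 -1.88, adjusted p = 1.14e-04) and was lower in untreated knockouts than in untreated controls (log2 -1.19, adjusted p = 0.0434), both by edgeR's quasi-likelihood test, with a difference of 1.55 (adjusted p = 0.0560). Zfp36l1 had 724, 652, 879 and 813, 279.7, 409.8, 275 and 242, 573, 560.1, 404 and 620.0 and 605, 492, 677 and 466 CPM in the 4 groups, with the controls lower after CCl4 and the 2 knockout ranges overlapping (difference 1.4, adjusted p = 0.101).

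Among the macrophage states, the list of lipid-associated macrophage genes had 15 members tested. Of these 3 were called with a negative difference (Cd36, Lpl and Lgals3), 11 of 15 were negative and 0 positive at an unadjusted p under 0.05, and all 15 had a negative sign, beside 4.73%, 6.44% and 50% of all genes. No member was set apart, and among genes not set apart these shares were 5.73%, 2.45% and 57.4%. In controls 9 of 15 rose with CCl4 and 0 fell, beside 5.73% and 4.81% of all genes, and in knockouts 0 rose and 0 fell. The median response was 2.06 in controls and -0.15 in knockouts, the median difference was -2.33, and over all tested genes these medians were -0.03, 0.02 and 0.00. Sorted by their responses, 8 members were blunted, 5 reversed and 2 enhanced. In 7 of 15 the controls with CCl4 were all above the other 12 libraries, as in 0.462% of all genes. Per mouse, the mean log2(CPM + 1) over the list was 5.90 to 6.81 in untreated controls, 7.90 to 9.22 in controls with CCl4, 7.09 to 7.26 in untreated knockouts and 6.82 to 7.08 in knockouts with CCl4. Controls with CCl4 stood clear of the rest. The other ranges did not overlap but nearly touched. Untreated controls ended at 6.812, knockouts with CCl4 ran from 6.818 to 7.075, and untreated knockouts began at 7.087.

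Among the other members of this list was Cd63, a tetraspanin of lysosomes and exosomes, with a control response of 2.83 (adjusted p = 3.93e-04 by edgeR's quasi-likelihood test) and a knockout response of 0.43. Mmp12, the macrophage elastase, was at 32.2, 84.4, 16.1 and 11.2 CPM in untreated controls and 227, 248, 1101 and 1013 in controls with CCl4, and at 112, 156, 121 and 184 and 70.8, 106, 247 and 270.4 in knockouts without and with CCl4. Mice 15 and 16 were far above all others, mice 17 and 18 overlapped the remaining controls with CCl4, and the difference of -3.91 did not pass (adjusted p = 0.127). Spp1, the gene of osteopontin itself and named after its values were seen, had responses of 1.33 in controls and 0.28 in knockouts (difference -1.06, adjusted p = 0.614, by edgeR's quasi-likelihood test). The 3 calls of the list depended on single libraries. Without mouse 4, 5, 8, 9, 13, 14, 15, 16, 17 or 20, 1 was called, without mouse 6, 2, and without mouse 7 or 12, 4 and 6. At an unadjusted p under 0.05, 11 or 12 members were negative in each of the 16 fits. Without mice 13 and 14, whose hepatocyte sums were highest, 2 were called and 13 were negative at an unadjusted p under 0.05, with medians of 2.07 in controls and -0.28 in knockouts. With the hepatocyte level of each library as a term, an alternative chosen after seeing the data, 0 were called and 10 were negative at that level, 8 rose and 1 fell in controls, 2 fell in knockouts, and the medians were 1.16 and -0.16. That hepatocyte level, as mean log2(CPM + 1), was 9.32 to 9.74 in untreated controls, 4.00 to 8.98 in controls with CCl4 and 7.10 to 9.01 in untreated knockouts. It was 6.33 to 9.72 in knockouts with CCl4. Untreated controls thus stood apart from the first 2 of these groups. The term is therefore partly confounded with group and cannot separate hepatocyte RNA from group, here or for other lists. Thinned to the smallest total, 0 list members were called and 11 were negative, and with DESeq2 9 were called. With mouse 11 as a knockout 1 was called and the knockout median was 0.30.

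**Figure D3:**
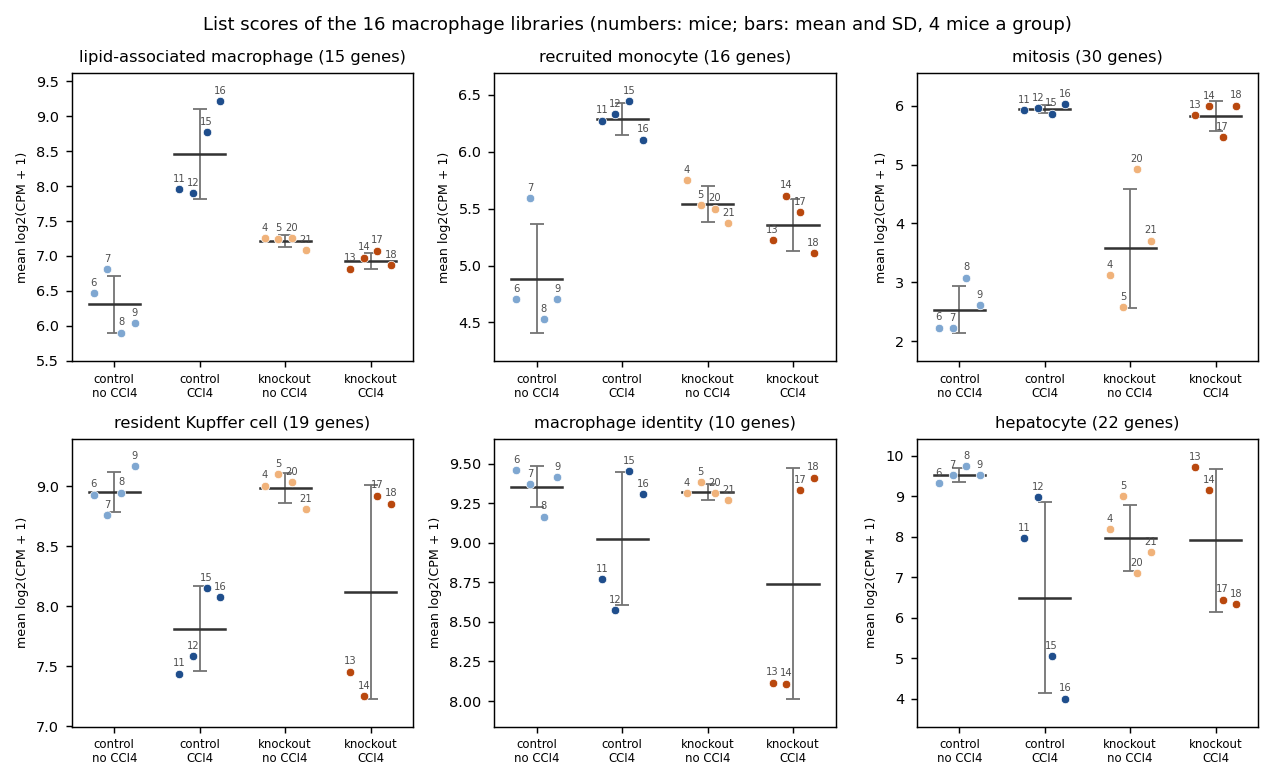
Mean log2(CPM + 1) per mouse over the genes of 6 lists, in the 4 groups. Lipid-associated macrophage levels of controls with CCl4 (7.90 to 9.22) stand above all other libraries, while hepatocyte levels vary widely within the groups with CCl4.

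The recruited monocyte list had 16 members tested, of which 0 were called, 10 were negative and 1 positive at an unadjusted p under 0.05. Over all genes tested 4.73% were negative and 6.44% positive at that level, and over genes not set apart 5.73% and 2.45%. In controls 8 rose with CCl4 and 0 fell, with a median response of 1.69, beside 5.73% and 4.81% of all genes. In knockouts 0 passed in either direction, with a median of -0.11, beside 0.37% of all genes upward and 0.074% downward. Ccr2, the receptor that brings monocytes from the marrow, was at 5.37, 74.9, 21.8 and 19.9 CPM in untreated controls and 199, 317, 182 and 145 in controls with CCl4, and at 78.6, 72.7, 118 and 140.4 and 135, 94, 158 and 102 in knockouts without and with CCl4. Its untreated control range ran from 5.37 in mouse 6 to 74.9 in mouse 7, and 1 knockout with CCl4, mouse 17, overlapped the controls with CCl4. Cx3cr1, the fractalkine receptor of monocytes, was at 3.35, 33.5, 10.8 and 8.63, 119, 106, 88 and 59.2, 115, 42, 104 and 77.3 and 83.5, 88.9, 172 and 73.1 CPM in the 4 groups, and both knockout ranges overlapped that of controls with CCl4. The differences were -2.56 for Ccr2 (adjusted p = 0.195), -2.49 for Cx3cr1 (adjusted p = 0.180) and -1.56 for the calcium-binding protein S100a6 (adjusted p = 0.161), by edgeR's quasi-likelihood test. The count of calls was 3 without mouse 7, 1 without mouse 12 or 20 and 4 with DESeq2. The knockout median was 0.20 without mouse 4 and 0.27 with mouse 11 as a knockout. Mean list levels per mouse were 4.53 to 5.59 in untreated controls, 6.11 to 6.44 in controls with CCl4, 5.37 to 5.75 in untreated knockouts and 5.11 to 5.61 in knockouts with CCl4. By summed CPM the ranges were 877 to 2658, 1818 to 2036, 1071 to 1202 and 807 to 1363 in the same order. The highest untreated control thus lay above all controls with CCl4 by sum, though not by mean log level.

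Genes of resident Kupffer cells went the other way in controls. Of 19 tested, 0 were called for the difference, 3 were positive and 0 negative at an unadjusted p under 0.05, and the median difference was 0.45. No member was set apart, and among genes not set apart 2.45% were positive and 5.73% negative at that level. In controls 7 fell with CCl4 (median response -0.99), beside 4.81% of all genes, and in knockouts 0 passed (median -0.64). C6 (chr15:4727175-4814967, plus strand), a terminal complement component made by mouse Kupffer cells, was at 864, 593, 829.6 and 1165 CPM in untreated controls and 84.6, 138, 129 and 133 in controls with CCl4, and at 634, 610.3, 671 and 587 and 261, 121, 643 and 458 in knockouts without and with CCl4. The controls did not overlap, whereas mouse 17, a knockout with CCl4, lay within the range of untreated knockouts and mouse 14 within that of controls with CCl4. C6 fell in controls by 2.83 on the log2 scale (adjusted p = 2.39e-04) and had a knockout response of -0.76 (adjusted p = 0.458), a difference of 2.08 (adjusted p = 0.118, all by edgeR's quasi-likelihood test). Cd207, a C-type lectin, and Cd163, the haemoglobin scavenger receptor, had control responses of -2.90 and -2.15 and knockout responses of -1.36 and -0.30. The control count of 7 fell to 2 without mouse 11, to 3 without mouse 12 and to 4 without mouse 6, 7, 9 or 16, and was 13 without mice 13 and 14. The count of 3 positive genes was 1 without mouse 8, 11, 17, 20 or 21, and 10 without mice 13 and 14. With the hepatocyte term 15 fell in controls (median -1.66) and 2 in knockouts (median -0.86), and 10 had a positive difference at an unadjusted p under 0.05. With set-apart genes removed 11 fell in controls, and with mouse 11 as a knockout 2 did.

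Lysosomal genes were mostly negative in the difference, by sign in 34 of 39 tested, with 10 negative and 0 positive at an unadjusted p under 0.05 and 0 called (median difference -0.63). Among genes not set apart, as all but 1 of the members were, 57.4% were negative by sign. At an unadjusted p under 0.05, 5.73% of those genes were negative and 2.45% positive. In controls 4 rose and 1 fell with CCl4 (median 0.26), beside 5.73% and 4.81% of all genes, and in knockouts 0 passed (median -0.37). The control median was 0.14 without mouse 15 and -0.01 without mouse 16. With the hepatocyte term it was -0.34, 2 rose and 7 fell in controls, 4 fell in knockouts, and 5 were negative and 1 positive in the difference. Ctsd, the aspartic protease cathepsin D, was at 796, 586, 819 and 826 CPM in untreated controls, 2116, 1539.7, 2756 and 3121 in controls with CCl4, 1719, 1581, 1881 and 1233 in untreated knockouts and 811, 992, 1835 and 2094 in knockouts with CCl4. Of the knockouts with CCl4, mice 13 and 14 were nearer to untreated controls, and mice 17 and 18 lay within the range of CCl4-treated controls. Ctsd rose in controls (log2 1.66, adjusted p = 0.00211) and had a knockout value of -0.16 (difference -1.82, adjusted p = 0.106). Ctsz, another cathepsin, and Atp6v0d2, a proton pump subunit of macrophages and osteoclasts, had differences of -1.38 and -3.20 that did not pass. Without mouse 12, 15 lysosomal genes were negative at an unadjusted p under 0.05 and 2 were called, and 7 rose in controls.

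Among 18 genes of matrix proteases and their inhibitors, 5 were negative and 0 positive at an unadjusted p under 0.05, with 0 called and a median difference of -0.12. Genes not set apart, as all members of this list and of the scavenger list were, were 5.73% negative and 2.45% positive at that level. Those of lowest p were Mmp12, the collagenases Mmp13 (control 3.30, knockout 0.15) and Mmp8 (control 2.86, knockout 0.11), and the sheddase Adam8 (control 2.49, knockout -0.12). In controls 4 of the 18 rose and 1 fell, beside 5.73% and 4.81% of all genes. Of 28 scavenger and efferocytosis genes, 1 was called (Cd36), 5 were negative and 1 positive at an unadjusted p under 0.05, and the median difference was -0.11. Cd93, a receptor linked to the clearance of dying cells, and the scavenger receptor Colec12 had control responses of 1.79 and 1.76 and knockout responses of -0.00 and -0.43. Gas6, the ligand that bridges dying cells to AXL and MERTK, had the positive difference (2.13, adjusted p = 0.289 by edgeR's quasi-likelihood test). With the hepatocyte term 5 scavenger genes were positive, 4 negative and 0 called.

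**Figure D4:**
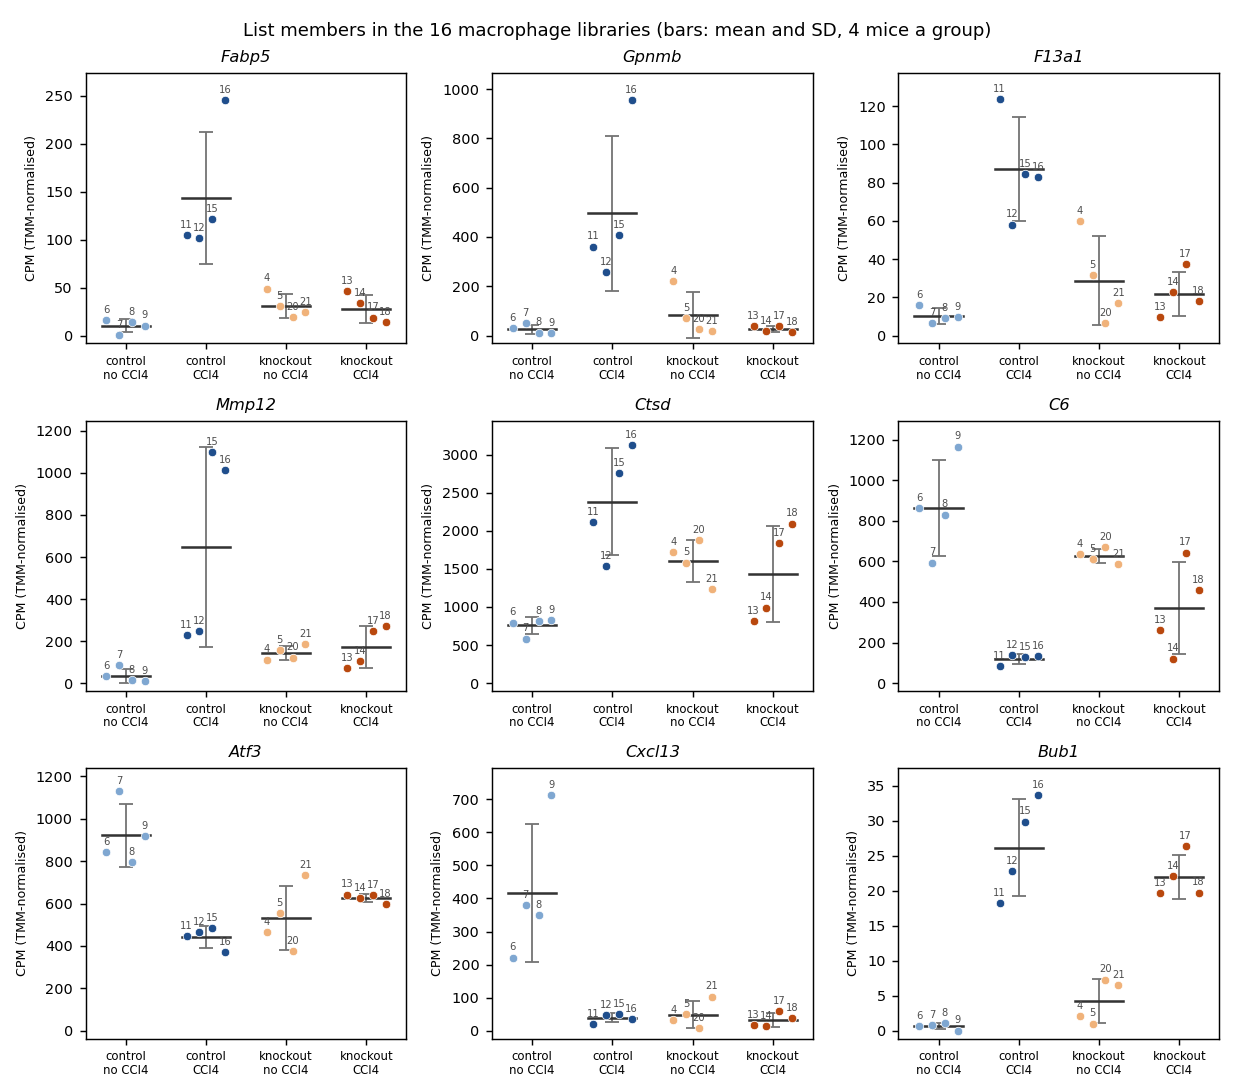
TMM-normalised CPM per mouse (points) for 9 genes of the lists described, in the 4 groups (bars, mean and SD, n = 4). None of the 9 passed the test of the difference; Bub1 is higher after CCl4 in both genotypes, while Fabp5 and Gpnmb are highest in controls with CCl4.

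Cell division genes included some that rose in both genotypes. Of 30 mitosis genes tested, 28 rose with CCl4 in controls and 8 in knockouts, with median responses of 3.65 and 2.09. Over all genes tested 5.73% rose in controls and 0.37% in knockouts, shares that also stand beside the replication genes below. The difference was called for 0 mitosis genes, and at an unadjusted p under 0.05 it was negative for 14 and positive for 0 (median -1.42). For all genes those shares were 4.73% and 6.44%. The count of 8 in knockouts depended on the method: it was 22 with DESeq2, 21 with voom, 17 with the hepatocyte level as a term, 15 without the low-count filter or with mouse 11 as a knockout and 2 with libraries thinned to the smallest total. The count of 14 negative genes was 15 with DESeq2, 6 with voom, 5 with the hepatocyte term and 6 thinned. Of 30 DNA replication genes, 23 rose in controls and 3 in knockouts, with medians of 2.15 and 1.31, and 5 were negative at an unadjusted p under 0.05 in the difference (median -0.79). Bub1, a kinase of the spindle checkpoint, was at 0.671, 0.797, 1.1 and 0 CPM in untreated controls and 18.3, 22.8, 29.9 and 33.7 in controls with CCl4, and at 2.06, 1.02, 7.28 and 6.5 in untreated knockouts and 19.7, 22, 26.4 and 19.7 in knockouts with CCl4. Neither genotype overlapped itself without and with CCl4, and the genotypes with CCl4 overlapped each other. Bub1 rose in controls (log2 4.96, adjusted p = 1.30e-04) and in knockouts (log2 2.36, adjusted p = 0.0475), and the difference of -2.60 did not pass (adjusted p = 0.209, all by edgeR's quasi-likelihood test).

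Mean levels of the mitosis list per mouse were 2.22 to 3.08 in untreated controls, 5.87 to 6.03 in controls with CCl4, 2.57 to 4.93 in untreated knockouts and 5.46 to 6.00 in knockouts with CCl4. After CCl4 the median genotype difference was -0.17, and without CCl4 it was 1.33. Of the 30 mitosis genes 16 were set apart as more abundant in the hepatocyte libraries. With set-apart genes removed, another such alternative, 13 of the 14 left rose in controls and 9 in knockouts, with medians of 2.94 and 2.05, and 5 had a negative difference at an unadjusted p under 0.05. The knockout count of 8 was 22 without mouse 20, 12 without mouse 6 or 7, 5 without mouse 12, 14, 15 or 17, 4 without mouse 13 or 16 and 0 without mouse 4, 5, 18 or 21. The count of 14 negative genes was 5 without mouse 20 and 9 without mouse 17, and the 3 replication genes called in knockouts were lost without mouse 4, 5, 18 or 21. Without mice 13 and 14, 1 mitosis gene rose in knockouts and 8 had a negative difference at an unadjusted p under 0.05. Of the replication genes, 12 were negative at an unadjusted p under 0.05 without mouse 18, with 1 called, 8 without mouse 8, and 3 without mouse 4, 6, 9 or 16, and 5 rose in knockouts without mouse 20. With DESeq2 11 replication genes rose in knockouts and 1 was called, and with the hepatocyte term 8 rose and 2 were negative.

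Stress-response lists differed in their responses. Over all genes tested 5.73% rose and 4.81% fell with CCl4 in controls. At an unadjusted p under 0.05 the difference was positive for 6.44% and negative for 4.73% of all genes. For genes not set apart, as all or most members of these lists were, those shares were 2.45% and 5.73%. Of 23 immediate early genes, 11 fell with CCl4 in controls and 0 passed in knockouts, with medians of -1.06 and -0.36. For the difference 0 were called, 5 were positive and 0 negative at an unadjusted p under 0.05, and the median was 0.45. Atf3 was at 841, 1130.4, 796 and 918 CPM in untreated controls and 446, 465, 486 and 370.5 in controls with CCl4, and at 466, 555, 375 and 733 and 642, 627, 638 and 597 in knockouts without and with CCl4. The controls did not overlap and the knockouts did, with mouse 21 above all knockouts with CCl4. Jun, Egr1 and Btg2 had control responses of -1.15, -1.21 and -2.12 and knockout responses of 0.06, -0.27 and -0.86. Without mice 13 and 14, 9 immediate early genes had a positive difference at that level, and 8 did with the hepatocyte term or with set-apart genes removed. Of 12 glucocorticoid target genes, 5 fell and 1 rose in controls (median -1.27) and 0 passed in knockouts (median 0.02), and 4 had a positive difference at an unadjusted p under 0.05 with 0 called (median 1.08). Of 15 heat shock genes, 2 fell in controls (median -0.33) and 0 passed in knockouts (median 0.20), and 3 had a positive difference at that level with 0 called (median 0.77).

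Chemokine genes were split. Of 18 tested, 3 were negative and 2 positive at an unadjusted p under 0.05, with 0 called and a median difference of -0.35. No member was set apart, and among genes not set apart 5.73% were negative and 2.45% positive at that level. Ccl9, a ligand of CCR1, was at 82.5, 98, 88.6 and 99.3 CPM in untreated controls, 292, 194, 545 and 703 in controls with CCl4, 349, 215, 126 and 65.6 in untreated knockouts and 160.2, 189, 141 and 158 in knockouts with CCl4. Untreated knockouts varied most, from 65.6 to 349 CPM, and the difference was -2.46 (adjusted p = 0.118 by edgeR's quasi-likelihood test). Cxcl13, the B cell attractant made by Kupffer cells among others, was at 221, 381, 350.4 and 714, 20.8, 47.7, 50.8 and 35.5, 30.8, 51.2, 8.9 and 103 and 17.7, 14, 59 and 39 CPM in the 4 groups. Untreated controls stood above all 12 other libraries, and the difference of 2.82 did not pass (adjusted p = 0.230). Ccl6 had a difference of -2.03 and the interferon-induced Cxcl10 of 2.42.

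Of the other immune lists, counts at an unadjusted p under 0.05 are set beside 4.73% negative and 6.44% positive over all genes tested. Over genes not set apart, as nearly all members of these lists were, the shares were 5.73% and 2.45%. Of 37 interferon-stimulated genes, 1 was positive and 1 negative, and the median difference was 0.26. MHC class II genes gave 0 of 12 in either direction, with median responses of -0.67 in controls and -0.74 in knockouts. Inflammatory cytokines gave 3 negative of 14 and 0 positive (median -0.66), and genes of alternative activation 3 negative and 1 positive of 12 (median 0.24), shares above that background in lists of few genes. Chil3, a chitinase-like lectin of that list and of the monocyte list, had a control response of 2.67 (adjusted p = 0.0377 by edgeR's quasi-likelihood test) and a knockout response of -0.78. For none of these 4 lists was a member called for the difference, and 0 genes passing does not show that the responses were equal.

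**Figure D5:**
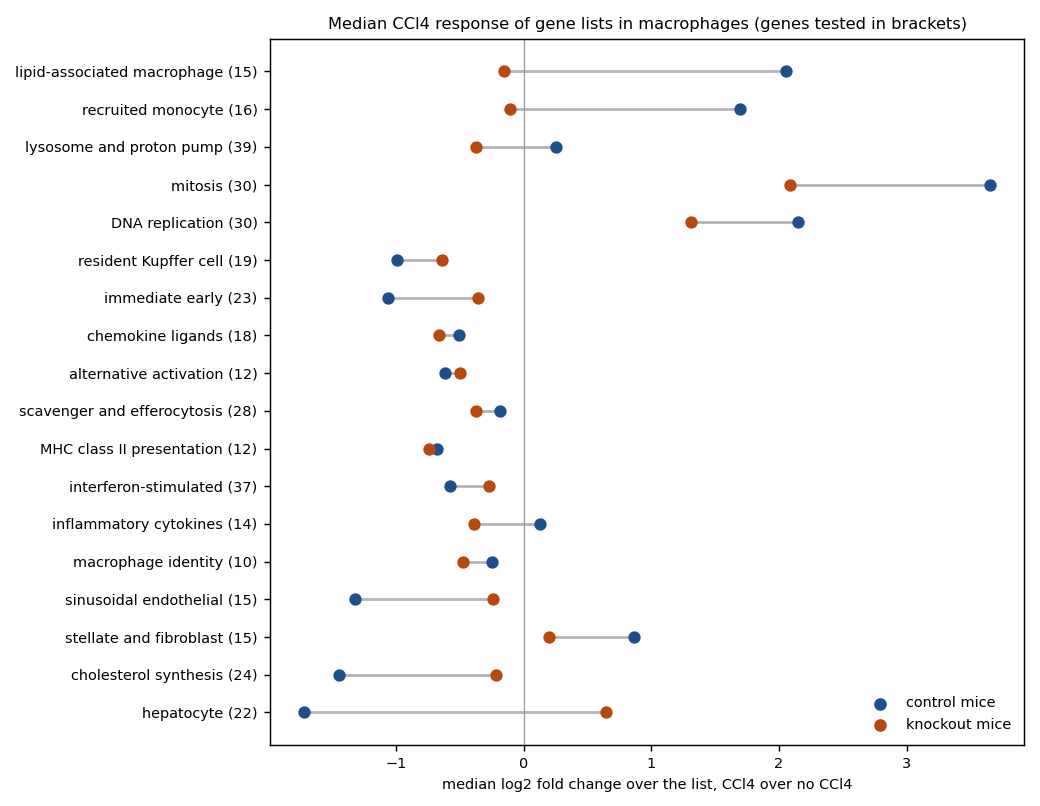
Median log2 response to CCl4 over the tested genes of 18 lists in control and knockout macrophages, joined by a line for each list. The lipid-associated list moves from 2.06 in controls to -0.15 in knockouts, and mitosis from 3.65 to 2.09.

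The responses of all genes that passed in controls were then sorted, as a description, since choosing genes by their control response favours a smaller value in the other arm. Of the 811 genes called for CCl4 in controls and not set apart, 767 were blunted, 23 enhanced and 21 reversed in knockouts, and 699 kept their sign. The 504 that rose in controls had a median of 1.5 there and 0.46 in knockouts, and the 307 that fell had -1.28 and -0.52. Without that choice, the median size of a response over the 8047 genes not set apart was 0.442 in controls and 0.3 in knockouts. The control and knockout responses share no library, and across these genes they had a Pearson correlation of 0.505 and a Spearman correlation of 0.432. Genes are not independent replicates, and hepatocyte content and depth vary between the libraries of both.

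CCl4 changed 41 genes in both genotypes, all in the same direction, 33 of them blunted and 8 enhanced. Of these, 11 belonged to the mitosis or DNA replication lists, which held 30 genes each of the 10815 tested. Genes named here were chosen after their values were seen. Kif20b, a kinesin of cell division, rose by 3.34 in controls and 2.14 in knockouts (adjusted p = 4.41e-06 and 0.00169 by edgeR's quasi-likelihood test). Top2a, the topoisomerase of dividing cells, rose by 3.71 and 2.45, and Stmn1, which regulates microtubules, by 2.69 and 2.69. Mcm10, which starts replication forks, rose by 1.56 in controls and 2.22 in knockouts, and was among the enhanced. The 3 genes that fell in both were Mir22hg, H2-K2 and Klf7.

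A further 7 genes passed in knockouts and not in controls, and all were sorted as enhanced, although none passed the test of the difference itself. Choosing genes in this way favours a larger knockout response, so their sorting only describes the choice. Gsr, glutathione reductase, was at 100.4, 98.3, 55 and 102 CPM in untreated knockouts and 29.5, 17.6, 23.3 and 21.1 in knockouts with CCl4, against 39.6, 30.3, 64.8 and 30.2 and 16.4, 30.1, 37.2 and 48.2 in controls. The knockout ranges did not overlap and the control ranges did. Gsr fell in knockouts by 1.97 on the log2 scale (adjusted p = 0.0218), with a control value of -0.36 and a difference of -1.61 (adjusted p = 0.209, by edgeR's quasi-likelihood test). Ccl24, an eosinophil attractant of alternatively activated macrophages, was at 353, 259, 444 and 168 and 38.3, 28.6, 109 and 118 CPM in knockouts without and with CCl4 and at 126, 135, 155 and 186 and 54.5, 80.9, 140.5 and 129 in controls. It fell in knockouts by 2.06 (adjusted p = 0.0475), and its difference was -1.48 (adjusted p = 0.367). The knockout call of Ccl24 was kept without mouse 11 and lost without any other library. Csf2ra, a chain of the GM-CSF receptor, and Naaa, a lysosomal hydrolase, had knockout responses of -1.46 and -1.5, both called.

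The 3 called transcripts that were set apart encode enzymes of hepatocyte metabolism or a methyltransferase-like protein. Sult2a8 (chr7:14410686-14446769, minus strand), a bile acid sulfotransferase of mouse liver, was at 53.7, 67.7, 104 and 45.7 CPM in untreated controls, 0.619, 3.11, 1.05 and 0.910 in controls with CCl4, 0.823, 1.02, 0 and 1.95 in untreated knockouts and 4.91, 5.14, 0 and 0.448 in knockouts with CCl4. Only untreated controls had more than 6 CPM. In hepatocyte libraries the Sult2a8 medians were 239 CPM of the library total in untreated controls and 22.2 in controls with CCl4. They were 9.7 in untreated knockouts, with a range of 0.545 to 135, and 3.59 in knockouts with CCl4. The fitted macrophage responses of Sult2a8 were -5.75 in controls and 1.37 in knockouts, a difference of 7.12 (SE 1.11, adjusted p = 0.0119 by edgeR's quasi-likelihood test). Cyp2c54 (chr19:40037940-40073827, minus strand), a cytochrome P450, had 335 counts in untreated controls and 2 in controls with CCl4, a CPM ratio of 122 (95% counting interval 33.5 to 1011). Mettl7a1 (chr15:100304140-100328662, plus strand) had 56.3, 51.8, 38.1 and 36.2 CPM in untreated controls, 10.2, 21.8, 8.39 and 10.9 in controls with CCl4, 9.05, 23.6, 13.8 and 16.9 in untreated knockouts and 53.1, 30.9, 26.4 and 19.7 in knockouts with CCl4. Leaving out mouse 13 or 14 ended the Sult2a8 call, and the other calls were kept in 3 fits each, without mouse 12, 17 or 18 for Cyp2c54 and without mouse 5, 12 or 18 for Mettl7a1. Without mice 13 and 14, the 2 libraries with the most hepatocyte RNA, the differences were 4.42 for Sult2a8 (adjusted p = 0.691) and 1.52 for Cyp2c54 (adjusted p = 0.981).

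Hepatocyte RNA varied widely within the groups with CCl4, whose ranges overlapped that of untreated knockouts. The 22 hepatocyte genes, all set apart, had a median response of -1.71 in controls and 0.64 in knockouts, and 5 had a positive difference at an unadjusted p under 0.05. Among all 2768 set-apart genes 18.1% had a positive difference at that level, the share to set beside the counts of hepatocyte and cholesterol synthesis genes. Mice 13 and 14 carried the knockout median: it was 0.12 without mouse 13, 0.27 without mouse 14 and -1.60 without both, beside -1.70 in controls in that last fit, where 0 genes were positive. The count of 5 was 16 without mouse 12, 10 without mouse 18, 8 without mouse 17, 3 without mouse 6, 9 or 16, 2 without mouse 7 or 8 and 1 without mouse 4, 13, 14, 15, 20 or 21, and 15 with voom. Of 24 cholesterol synthesis genes, 23 set apart, 10 had a positive difference at that level, 2 without mice 13 and 14, 2 with the hepatocyte term, 4 without mouse 20, 5 without mouse 8 or 13 and 6 without mouse 16. Sinusoidal endothelial genes had median responses whose difference was 0.98, with 2 of 15 positive at that level, and their summed CPM was 3422 to 4742, 613 to 3346, 2508 to 4826 and 1723 to 3866 in the 4 groups. Stellate and fibroblast genes gave 0 of 15 and a median difference of -0.75, with summed CPM of 439 to 1004, 309 to 2696, 1208 to 5210 and 922 to 5638. Neutrophil genes gave 2 negative of 9, with sums of 102 to 221, 177 to 464, 276 to 445 and 283 to 311 CPM. Most endothelial, stellate and neutrophil genes were not set apart, and among such genes 5.73% were negative and 2.45% positive at that level. The part of these other cells in the differences above was not tested gene by gene. With the hepatocyte level of each library as a term, 1 gene was called, Emp1, and with the set-apart genes removed 26 were called, among them all 9 described. That term is partly confounded with group, so a call lost with it cannot be assigned to hepatocyte RNA.

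Yap1 and Wwtr1 (the gene of TAZ), the deleted genes, do not check the labels here, since the deletion was directed at biliary cells and the tag lies at the 3' end. Their differences were 1.32 (adjusted p = 0.611) and 1.05 (adjusted p = 0.745) by edgeR's quasi-likelihood test. Of 16 genes known as YAP and TAZ targets, 2 rose with CCl4 in controls, and 2 had a negative and 1 a positive difference at an unadjusted p under 0.05, with 0 called and a median of 0.34. Over all genes tested 5.73% rose in controls, and 4.73% had a negative and 6.44% a positive difference at that level. Of 10 pathway genes, 0 passed that level in either direction.

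The number of genes called for the difference depended on single libraries. It was 43 without mouse 12, 16 without mouse 18, 13 without mouse 7, 4 without mouse 13, 5 without mouse 9 or 15, 6 without mouse 8 or 14 and 7 without mouse 4, 5, 16 or 20, and 8 without mouse 6, 11, 17 or 21. Without mice 8 and 11 it was 4, and with mouse 11 grouped as a knockout it was 2. Emp1, Cd36, Myo5a and Gdf3 were called in each of the 16 fits that left out 1 library.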

How the data were processed

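The authors deposited raw counts per gene, 1 table per cell type (26233 genes for macrophages). Per the labels' protocols, libraries were made with a QuantSeq 3' kit. Reads were processed with Trimmomatic 0.39 and HISAT2 2.1.0 on GRCm38, per the submitters' processing notes. For the read counter, the annotation and the strand setting, not given in the sources used here, nothing is assumed, and overlapping and antisense genes and close copies such as the Cyp2c and Sult families cannot be told apart with certainty. Library totals were 596380 to 5128587 counts, and intervals from counts cover counting error only. Gene positions are from the GENCODE annotation of GRCm38.

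The 16 macrophage libraries were fitted as 4 groups in R 4.3.3 with edgeR 4.0.16 (filterByExpr, TMM factors, robust quasi-likelihood F tests, Benjamini-Hochberg adjustment over 10815 genes, threshold 0.05), with no block. Standard errors, taken as the size of the log2 value divided by the root of F, are approximate. Each library is 1 mouse; the lowest chi-square between 2 libraries of a group, over its degrees of freedom, was 5.16, above sampling noise. A gene was set apart where its mean CPM of the library total over the 4 hepatocyte groups was above that over the 4 macrophage groups, with no test between the tables.

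Genes were named by a rule: of the called genes not set apart with at least 10 CPM in a group, up to 10 of lowest p per class; the next lowest p up to 24 in all; the 4 set-apart genes of lowest p; up to 4 genes of lowest p per list described; and Yap1 and Wwtr1. Any other gene is marked where it was picked with its values known. The comparison, the sorting and the lists were chosen with earlier results of these data known. List counts and medians are descriptions, with no test of a list. Alternatives were DESeq2 1.42.0, voom of limma 3.58.1, RLE factors, no low-count filter, a fit that was not robust, the file series as a term or left out, mouse 11 as a knockout, leaving out each library, and other limits of the sorting and of the set-apart rule. Removing set-apart genes, a hepatocyte term, thinning to the smallest total, and leaving out mice 13 and 14 or 11 to 14 were added, chosen after seeing the data. Fits of simulated counts tested the scripts.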

Additional observations from a re-analysis of the deposited data

Results flagged for a closer look

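The difference between the genotypes' responses was itself tested and passed for 12 genes, which are listed for a closer look for that reason. On the log2 scale it was -3.38 for Emp1, -2.20 for Cd36, -3.01 for Myo5a, -3.46 for Stap1, -5.55 for Gdf3, -2.43 for Lsp1, -2.98 for Lpl and -2.96 for Lgals3. It was 5.57 for Gpc3, 7.12 for Sult2a8, 7.77 for Cyp2c54 and 2.93 for Mettl7a1, the last 3 more abundant in hepatocyte libraries.

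A single mouse stood far from the other 3 of its group in 11 of 140 groups of 4 examined, and chance flags about 1 group in 20. Among untreated controls these were Myo5a at 15.9 CPM and Ctsd at 586 CPM in mouse 7, Lpl at 1492 CPM in mouse 6, Ipmk at 125 CPM in mouse 8 and the monocyte list level of 5.59 in mouse 7, which also held more Ccr2 and Cx3cr1 than the rest of its group. Among controls with CCl4 they were Fabp5 at 246 CPM in mouse 16 and C6 at 84.6 CPM in mouse 11. Among untreated knockouts they were Gsr at 55.0 CPM in mouse 20 and the lipid-associated list level of 7.09 in mouse 21. Among knockouts with CCl4 they were Myo5a at 17.9 CPM in mouse 18 and Cx3cr1 at 172 CPM in mouse 17.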

How the results depend on the processing

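Over 834 alternative fits of 29 named genes, the difference kept its direction in all: 629 kept their side of the threshold, 134 lost the call and 71 gained it. These genes were chosen by their low p in the same libraries, and most fits reused nearly all of those libraries. An unchanged direction was therefore likely from the start and is no independent support. Over 231 fits of 8 list medians, 212 moved by less than the replicate spread, 19 moved by more and 0 changed sign. RLE factors gave 13 genes, voom 10, a fit that was not robust 16, the file series as a term 11 and leaving out mice 13 and 14, 14, beside 12. Without mice 13 and 14, only 5 of the 12 calls were kept, those of Emp1, Cd36, Myo5a, Stap1 and Gdf3. Lpl, Lgals3, Lsp1, Gpc3 and the set-apart genes lost theirs, and 7 of the 14 genes called had a negative difference. In the order macrophage interaction, CCl4 response in control macrophages, CCl4 response in knockout macrophages, genotype without CCl4 in macrophages and genotype after CCl4 in macrophages (12, 1140, 48, 8 and 3 genes), the counts that moved by over 1.5 times were as follows. Without the low-count filter they were 90, 126, 65 and 27, and with DESeq2 162, 208, 152 and 40, CCl4 in controls not moving so in either. With voom they were 83 for CCl4 in knockouts and 33 for genotype without CCl4, and with a fit that was not robust 5 and 0 for the genotype comparisons. Without mice 8 and 11 they were 4, 680, 30, 5 and 0. With mouse 11 as a knockout they were 2 for the difference, 106 for CCl4 in knockouts and 0 after CCl4. Without set-apart genes they were 26 for the difference and 15 and 5 for genotype. With the hepatocyte term they were 1, 322, 55 and 7, CCl4 in controls not moving so, and thinned 1, 481, 5, 0 and 0. Without mice 13 and 14 they were 11 for CCl4 in knockouts and 35 and 9 for genotype. Without mice 11 to 14 they were 218, 1960, 21, 263 and 87. Leaving out 1 library each gave 4 to 43, 663 to 1268, 1 to 81, 1 to 17 and 0 to 8. Where 0 genes passed after CCl4, edgeR and DESeq2 differed in the count (0 to 8 and 40).

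Blunted, reversed and enhanced genes numbered 4, 5 and 0, and set-apart called genes 3. Blunted genes were 35 without the filter, 61 with DESeq2, 2 with mouse 11 as a knockout, 19 without set-apart genes, 1 with the hepatocyte term, 1 thinned, 10 without mice 13 and 14, 70 without mice 11 to 14, 1 and 8 at limits of 0 and 1, and 3 to 16 without 1 library. Reversed genes were 27, 30, 1 without mice 8 and 11, 0 with mouse 11 as a knockout, 0 with the hepatocyte term, 0 thinned, 28 without mice 11 to 14, 8 and 1 at those limits, and 0 to 9 without 1 library. Enhanced genes were 1 with DESeq2, 1 without mice 11 to 14 and 0 without any 1 library. Set-apart called genes were 28 without the filter, 70 with DESeq2, 119 without mice 11 to 14, 0 without mice 8 and 11, with mouse 11 as a knockout, with the hepatocyte term, thinned, with those genes removed or without mice 13 and 14, and 0 to 18 without 1 library. The causes of these changes were not tested, apart from fewer genes, libraries or counts entering a fit. No paired analysis was possible because the numbers in the labels are mouse numbers and no mouse gave macrophages to 2 groups. Depth limits genes such as Gdf3 and Gpc3, since 3 counts are worth up to 5.03 CPM in the smallest library.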
